A study of Mus musculus with 6 samples.

Results

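The 8 genes described here serve MHC class II antigen presentation in mouse mast cells: H2-Aa, H2-Ab1, H2-Eb1, H2-DMa, H2-DMb1, H2-Oa, Cd74 and Ciita. They were picked by name, each through the array probe set that lists that symbol alone. Of the 8, 7 had such a probe set, out of 19938 genes measured this way. H2-DMb1 had none, because its probe set is also listed under the neighbouring H2-DMb2.

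The cells were bone marrow derived mast cells of C57BL/6J mice, either wild type (WT) or with the gene of the microRNA miR-155 knocked out (miR-155 KO), differentiated over 5 weeks with SCF at 1 ng/ml and IL-3 at 0.5 ng/ml. Both genotypes received IgE specific for the hapten DNP (0.2 µg/ml, overnight) and then the antigen DNP-HSA (20 ng/ml, 1 h), which engages the IgE receptor FcεRI. RNA from 3 independent cultures per genotype was measured on 6 Affymetrix mouse gene arrays, 1 per culture. All groups were stimulated, so the comparison is between genotypes in stimulated cells and holds no measure of the response to antigen.

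MHC class II molecules are pairs of an alpha and a beta chain that display peptides from the endosomal route to CD4+ T cells. Cd74, the invariant chain, escorts new pairs to the endosome, where H2-DM exchanges its remnant for peptide and H2-O restrains H2-DM. Ciita is the master coactivator of these genes and acts through a conserved set of promoter elements, among them the X and Y boxes. Dendritic cells, macrophages and B cells are the usual carriers of class II, whereas cultured mast cells are known for little of it unless induced.

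The microRNA that one genotype lacks is shown first, since it defines the groups. A promoter stretch that some of the class II genes share follows. The mature strand miR-155-5p (RefSeq, GRCm38.p6, chr16:84714143-84714165, plus strand) is printed with its seed, bases 2 to 8, in capitals:
miR-155-5p: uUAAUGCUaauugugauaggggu

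RefSeq promoter sequences, 250 bases before to 50 after each start, were used for 5 of the 8 genes. H2-Ab1 and Ciita had no promoter sequence in the reference used. Cd74 was left out of these 5, and whether its promoter holds the letters below is not reported here. In 4 of the 5, the gene's own strand held the letters GNAAC, the core of an X box, followed 10 to 40 bases later by TGATTGG, the core of a Y box. Both letter strings were chosen with these promoters in view and do not overlap. On either strand this arrangement occurs in 0.828% of all 32851 promoters of the table, and TGATTGG or its complement in 7.82%. The 4 windows are shown with the X and Y letters in capitals, in the direction of transcription, on GRCm38.p6:
H2-Aa (chr17:34287862-34287909, minus strand): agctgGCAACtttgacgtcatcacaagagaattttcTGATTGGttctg
H2-Eb1 (chr17:34305771-34305817, plus strand): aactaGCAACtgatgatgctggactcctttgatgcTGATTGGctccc
H2-DMb1 (chr17:34153092-34153139, plus strand): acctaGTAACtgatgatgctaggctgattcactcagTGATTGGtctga
H2-Oa (chr17:34092298-34092345, plus strand): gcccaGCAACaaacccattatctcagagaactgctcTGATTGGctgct

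The gap between the X and Y letters was 26 bases in H2-Aa, H2-DMb1 and H2-Oa and 25 in H2-Eb1. H2-DMa, with 2 start sites in the table, held neither the pair nor TGATTGG in these windows.

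Values are log2 intensities. The array medians lay between 3.67 and 3.74 and the lower quartiles between 2.89 and 2.95, so a reading near or below these marks a signal that may be background. KO replicate 1 stood apart from the other arrays on the first principal component, at 32.0 against 5.36 and 7.31 for the other KO arrays and -19.5 to -10.6 for WT. The probe set of the deleted Mir155 read 2.99 ± 0.15 in WT and 2.86 ± 0.08 in KO (SD, n = 3), near the arrays' floor in both, and so checks neither the deletion nor the labels. Genes that define mast cells read high in both genotypes, among them the IgE receptor gene Fcer1a at 12.06 ± 0.13 and 12.10 ± 0.10, and Kit, the SCF receptor, at 11.89 ± 0.19 and 11.82 ± 0.10 (SD, n = 3).

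Most class II genes read at or below the middle of the array range in mast cells of both genotypes. H2-Aa, H2-Eb1, Cd74 and Ciita read below the array median on all 6 arrays, and H2-DMa lay at the median. Only H2-Ab1 and H2-Oa read above the median on all 6 arrays, and these were also the 2 with the widest differences between genotypes, in opposite directions. H2-Ab1 was lower in miR-155 KO by 0.56 on the log2 scale (SE 0.10) and H2-Oa higher by 0.51 (SE 0.17). By limma 0 of the 7 genes passed an adjusted p of 0.05, against 0.823% of all genes tested (0.507% higher and 0.316% lower in KO). At an unadjusted p under 0.05 there were 2, H2-Ab1 and H2-Oa, against 12.7% of all genes. The median difference over the 7 genes was 0.06, and over all genes it was -0.01. Probe sets differ in background and in labelling, so these readings give no order of abundance among the genes.

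**Figure D1:**
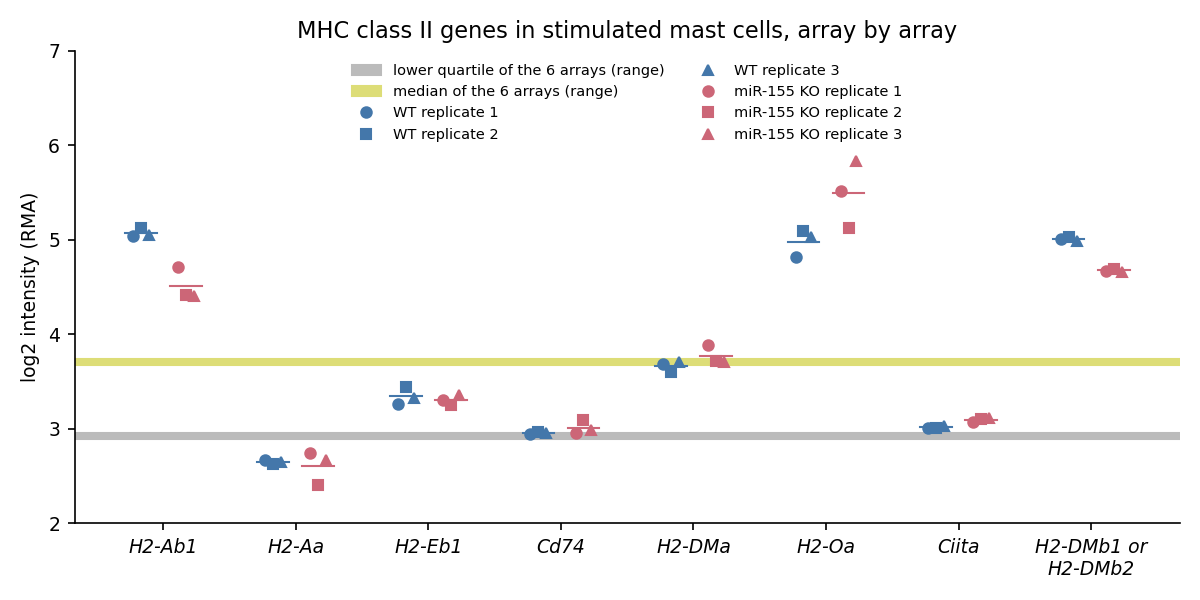
Log2 intensity (vertical axis) of the 7 class II genes and of the probe set shared by H2-DMb1 and H2-DMb2, for each WT (blue) and miR-155 KO (red) array; symbols mark the replicate, short lines the group means, and the bands the range of the array medians (yellow) and lower quartiles (grey). H2-Ab1, H2-Oa and the shared probe set stand above the medians, and H2-Aa lies under the lower quartiles on all 6 arrays.

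H2-Ab1, which encodes the beta chain of the I-A molecule, read 5.03, 5.13 and 5.05 on the WT arrays and 4.71, 4.42 and 4.40 on the KO arrays. Every KO array lay below every WT array, with a gap of 0.326 between the groups, and KO replicate 1 was the closest to WT. The means were 5.07 ± 0.05 and 4.51 ± 0.17 (SD, n = 3), which is 1.48-fold lower in KO, with a 95% interval of -0.80 to -0.33 on the log2 scale. The difference missed the threshold (limma, adjusted p = 0.0523), at rank 174 of all genes by p. It passed without KO replicate 1, at -0.66 (limma, adjusted p = 0.0249), and the adjusted p ran from 0.0249 to 0.184 over the alternatives. As these are bulk RNA samples, fewer cells that carry the transcript and less transcript per cell cannot be told apart.

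H2-Aa encodes the alpha chain that pairs with the product of H2-Ab1. It read 2.67, 2.62 and 2.65 in WT and 2.74, 2.41 and 2.67 in KO. All 6 readings lay under the lower quartile of their array, and the groups overlapped. The difference was -0.04 with a 95% interval of -0.27 to 0.19 (limma, adjusted p = 0.935).

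H2-Eb1 encodes the beta chain of the I-E molecule, whose alpha chain is not made in C57BL/6 mice. It read 3.26, 3.45 and 3.32 in WT and 3.30, 3.25 and 3.36 in KO, below the median throughout and with overlapping groups. Its difference was -0.04 (95% interval -0.23 to 0.16, limma adjusted p = 0.929). The probe set of H2-Ea, the gene of that missing alpha chain, read 2.97 ± 0.18 in WT and 2.95 ± 0.18 in KO (SD, n = 3), both below the array medians.

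Cd74, the invariant chain and usually among the most abundant transcripts of class II-bearing cells, read 2.95, 2.97 and 2.95 in WT and 2.95, 3.09 and 2.99 in KO. These values lie at or slightly above the lower quartiles of the arrays and below the array medians. The groups overlapped, and the difference was 0.06 (95% interval -0.13 to 0.24, limma adjusted p = 0.865).

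H2-DMa encodes the alpha chain of the peptide exchange factor H2-DM. It read 3.69, 3.60 and 3.71 in WT and 3.89, 3.72 and 3.71 in KO, close to the array medians. The difference was 0.11 (95% interval -0.09 to 0.31, limma adjusted p = 0.717), and the groups overlapped. For the beta chain of H2-DM the arrays hold a single probe set under the symbols of both H2-DMb1 and H2-DMb2, closely related neighbours that it cannot separate. That probe set read 5.01, 5.03 and 4.99 in WT and 4.67, 4.69 and 4.66 in KO. The 2 groups were tight and well apart, with a difference of -0.33 (SE 0.08). Tested together with the 19938 genes it did not pass (limma, adjusted p = 0.0920), and which of the 2 genes it reports is not known.

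H2-Oa encodes the alpha chain of H2-O, the inhibitor of H2-DM. It read 4.82, 5.10 and 5.03 in WT and 5.51, 5.12 and 5.83 in KO. Every KO array lay above every WT array, but KO replicate 2 did so by only 0.0276. The means were 4.98 ± 0.14 and 5.49 ± 0.36 (SD, n = 3), 1.42-fold higher in KO, with a 95% interval of 0.13 to 0.89 on the log2 scale (limma, adjusted p = 0.229). The size of the difference followed the KO array left out: it was 0.69 without KO replicate 2, 0.50 without KO replicate 1 and 0.34 without KO replicate 3. H2-Ob, the gene of the partner beta chain, differed by -0.23 (SE 0.23, limma adjusted p = 0.778) and had overlapping groups.

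Ciita, the coactivator, read 3.01, 3.00 and 3.03 in WT and 3.07, 3.10 and 3.11 in KO. The groups were separate by 0.0368, on readings below the array medians, and the difference was 0.08 (95% interval -0.09 to 0.25, limma adjusted p = 0.769). H2-Ab1, H2-Oa and Ciita were the 3 genes of the 7 without overlap between genotypes, against 17.2% of all genes tested.

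**Figure D2:**
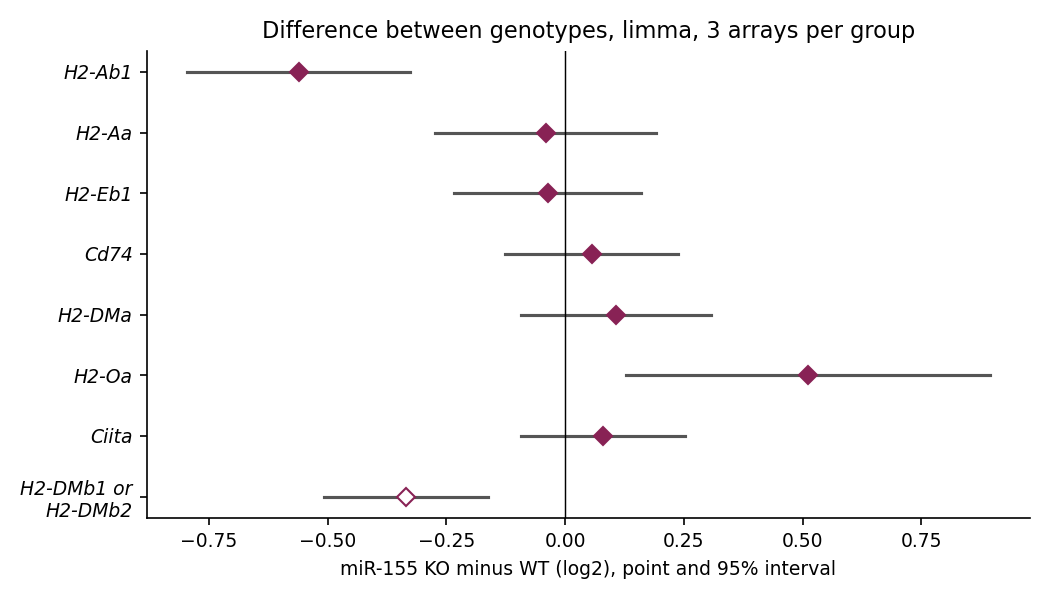
Difference between miR-155 KO and WT (log2, horizontal axis) for the 7 class II genes (filled) and the probe set shared by H2-DMb1 and H2-DMb2 (open), with 95% intervals from limma over 3 arrays per group. H2-Ab1 at -0.56 and H2-Oa at 0.51 have intervals clear of 0, as does the shared probe set, while the other 5 genes have intervals that include 0.

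Of the genes in this set, H2-Oa, H2-DMa, H2-DMb1, H2-Ab1, H2-Aa and H2-Eb1 lie together on chromosome 17, with genes of the class I pathway between them; Ciita is on chromosome 16 and Cd74 on chromosome 18. From H2-Oa to H2-Eb2 the RefSeq table lists 14 protein-coding genes, 12 of which had a probe set of their own. This stretch was laid out after the values were seen. By limma 0 of the 12 passed, and 5 were at an unadjusted p under 0.05, against 12.7% of all genes tested. In 3 of them all KO arrays lay below all WT arrays (9.05% of all genes tested), in 1 all lay above (8.18%), and in 8 the groups overlapped. The 3 lower genes were H2-Ab1, Psmb9, a subunit of the immunoproteasome, and Tap1, a chain of the peptide transporter of the class I pathway. Psmb9 went from 6.85 ± 0.12 to 6.44 ± 0.05 (difference -0.41, SE 0.09, limma adjusted p = 0.0872, n = 3) and Tap1 from 7.03 ± 0.23 to 6.60 ± 0.08 (difference -0.43, SE 0.12, limma adjusted p = 0.152, n = 3). Between Tap1 and Tap2, Psmb8 differed by 0.02 (SE 0.15).

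**Figure D3:**
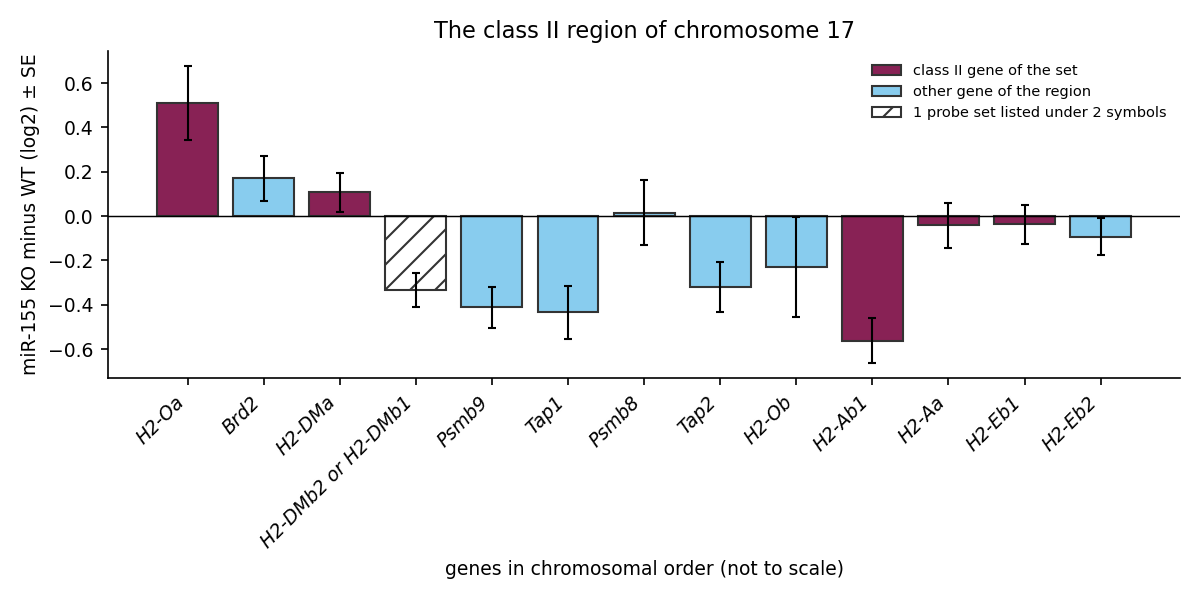
Difference between miR-155 KO and WT (log2, bars, with SE) for the genes from H2-Oa to H2-Eb2 in chromosomal order, not to scale, with genes of the set in purple, other genes in light blue and the probe set of H2-DMb2 and H2-DMb1 hatched. H2-Oa stands at 0.51, Psmb9, Tap1 and H2-Ab1 between -0.56 and -0.41, and H2-Aa and H2-Eb1 near 0.

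Of 18 promoter factors and chromatin regulators 17 had means above the median of all probe sets, the exception being Prdm1, a transcriptional repressor, at 2.82 in WT and 2.78 in KO. Rfx5, Rfxank and Rfxap, the subunits of the complex that binds the X box, had WT means of 5.71, 5.66 and 5.98, all above the array medians. Their differences were 0.04 (SE 0.12), 0.15 (SE 0.15) and -0.03 (SE 0.08). By limma 0 of the 18 passed. At an unadjusted p under 0.05, which 12.7% of all genes reached, 1 was higher and 3 lower. These were Zbtb32, a zinc finger repressor, at 0.41, and Creb1, Ezh2 and Ctcf at -0.28, -0.42 and -0.27. The median difference of the 18 was 0.01.

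Genes of the signalling routes around Ciita showed single differences in both directions. The 21 measured were genes of interferon-γ, GM-CSF, IL-4 and IL-10 signalling and transcription factors, and included the inhibitor Socs1. By limma 0 of the 21 passed. At an unadjusted p under 0.05 there were 3 higher and 2 lower, against 12.7% of all genes in either direction. Csf2, which encodes GM-CSF, read 3.46, 3.56 and 3.50 in WT and 5.12, 4.26 and 5.80 in KO, with a difference of 1.56 (SE 0.31, limma adjusted p = 0.0654). The WT readings lie under the array medians, so this difference may be inexact. Irf1, a transcription factor of the interferon-γ route to Ciita, read 6.45, 6.39 and 6.56 in WT and 6.15, 5.90 and 6.00 in KO. Its difference was -0.45 (SE 0.10, limma adjusted p = 0.0815) on the probe set with the highest mean. With the mean of all its probe sets the difference was only -0.18 (limma, adjusted p = 0.487). Stat5a, which acts downstream of GM-CSF, differed by 0.68 (SE 0.15, limma adjusted p = 0.0924). Among the myeloid factors, Spi1 differed by 0.27 (SE 0.13) and Irf8 by 0.01 (SE 0.10), the latter with a WT mean of 3.80, near the array medians. Ifng itself read 3.08 and 2.91, under the medians in both genotypes.

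Of the machinery that processes antigen or turns class II over, 18 genes were measured. By limma 1 rose, 0 fell and 17 did not pass, against 0.823% of all genes tested that passed. The one that rose was Cd82, a tetraspanin found in the compartment where class II is loaded, which read 8.23, 8.06 and 8.02 in WT and 9.98, 9.28 and 9.66 in KO (2.90-fold, SE 0.16 on the log2 scale, limma adjusted p = 0.00733). By limma it was just outside the threshold when WT replicate 1 (adjusted p = 0.0508) or WT replicate 3 (adjusted p = 0.0502) was left out. Tetraspanins are general membrane organisers and Cd82 is not specific to class II. Ctss, Ctsl and Lgmn, proteases that cut the invariant chain or antigen, had WT means of 3.31, 3.42 and 2.98, below the array medians, while Ctsd and Cst3 read 12.21 and 11.35. The median difference of the 18 was -0.01.

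The T cell costimulatory ligands had the highest median difference of the pathway lists, at 0.19. Among 12 such genes 1 rose, 0 fell and the other 11 missed the threshold, against 0.823% of all genes tested that passed. At an unadjusted p under 0.05 by limma there were 4 higher and 2 lower, against 12.7% of all genes in either direction. The 2 lower were Icosl at -0.31 and Tnfsf9 at -0.49. Tnfsf14, the ligand LIGHT, rose 2.11-fold, from 7.94 ± 0.09 to 9.02 ± 0.29 (SD, n = 3, limma adjusted p = 0.0158). Leaving out any WT array, or KO replicate 3, ended the call (limma, adjusted p from 0.0578 to 0.0788). Pdcd1lg2, which encodes the inhibitory ligand PD-L2, read 4.85, 4.64 and 4.60 in WT and 5.92, 5.23 and 5.58 in KO, a difference of 0.88 (SE 0.16, limma adjusted p = 0.0524), and Tnfsf4, the ligand OX40L, differed by 2.28 (SE 0.65, limma adjusted p = 0.166). The classical partners of class II on presenting cells, Cd80 and Cd86, read 2.87 and 2.81 in WT and 2.92 and 2.91 in KO, at the floor of the arrays.

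All 14 measured genes of the class I pathway had means above the median of all probe sets. B2m, the light chain of class I, read 11.26 ± 0.12 in WT and 11.43 ± 0.03 in KO (SD, n = 3). Nlrc5, the class I counterpart of Ciita, had a WT mean of 7.09 and differed by -0.18 (SE 0.25). By limma 0 of the 14 passed. At an unadjusted p under 0.05 there were 4 higher and 3 lower, against 12.7% of all genes in either direction. Psme2, a subunit of the proteasome activator PA28, differed by 0.94 (SE 0.18, limma adjusted p = 0.0542), and Psme1, its partner, by 0.45 (SE 0.11, limma adjusted p = 0.108), in the direction opposite to Psmb9 and Tap1.

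**Figure D4:**
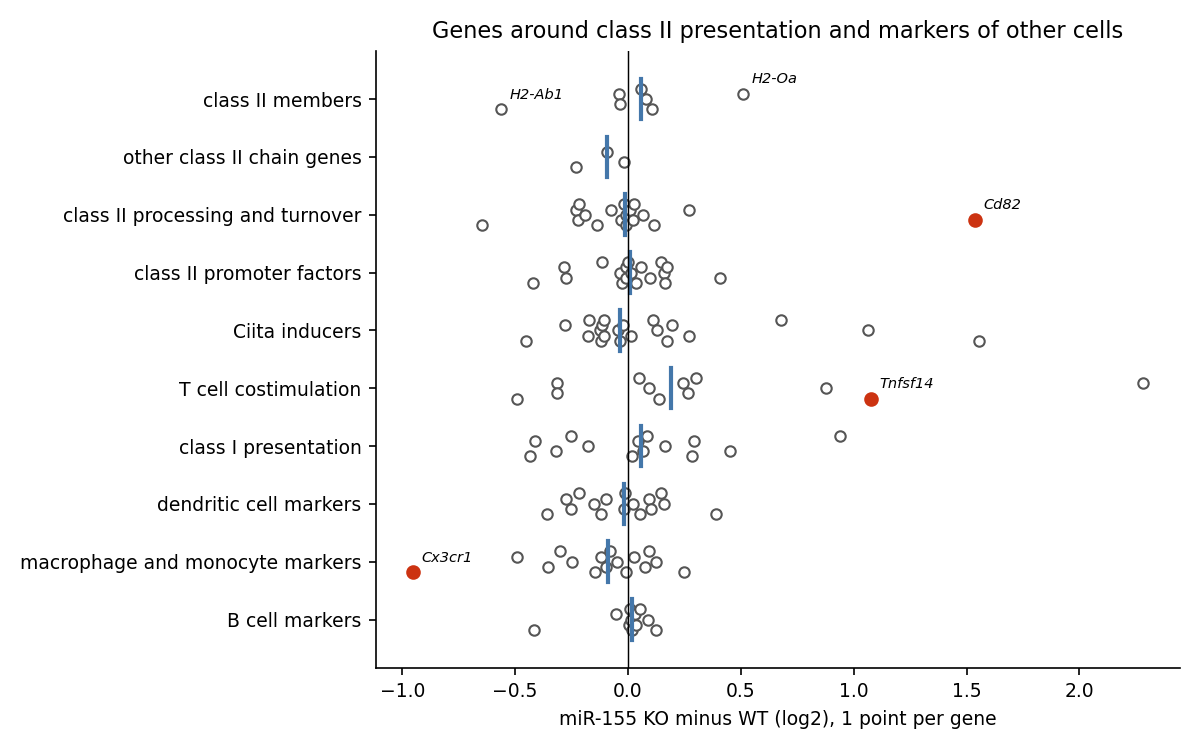
Difference between miR-155 KO and WT (log2, horizontal axis) for each gene of the class II set, of the lists around it and of 3 lists of cell type markers; filled red points passed an adjusted p of 0.05 by limma, and blue bars are list medians. Cd82 and Tnfsf14 rose, Cx3cr1 fell, and the class II genes spread from -0.56 for H2-Ab1 to 0.51 for H2-Oa with a median of 0.06.

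Markers of the usual class II-bearing cells mostly read low. Of 16 macrophage and monocyte markers 14 had means at or below the median of all probe sets, among them Csf1r, Adgre1, Lyz2 and C1qa. Cx3cr1 fell by 0.95 (SE 0.14, limma adjusted p = 0.0280), 0 rose and 15 did not pass, while 0.316% of all genes tested fell. Of the 6 fits without 1 array Cx3cr1 passed in 1, that without KO replicate 2. The summed linear intensity of the 16 ran from 887 to 1016 in WT and from 520 to 710 in KO. Of 16 dendritic cell markers 8 lay at or below the median, including Flt3, Xcr1 and Clec9a, Zbtb46 lay close to it at 3.68 in WT and 3.84 in KO, and the sums ran from 590 to 633 in WT and from 511 to 578 in KO. By limma 0 of these 16 passed, with 1 higher and 2 lower at an unadjusted p under 0.05, which 12.7% of all genes reached. Itgax was the one higher, at 0.39 (SE 0.17). Of 11 B cell markers 10 lay at or below the median, with sums of 98.5 to 112.6 in WT and 99.98 to 105.6 in KO. By limma 0 of the 11 passed, and 1, Cd72, was lower at an unadjusted p under 0.05. Both the macrophage and the dendritic cell sums were lower in KO, as was H2-Ab1. Most of the fall in each sum lay in 2 genes. Without Cx3cr1 and Cd68 (8.46 in WT, 8.10 in KO), left out after their values were seen, the other 14 macrophage markers summed to 123.8 to 145.7 in WT and 121.0 to 131.4 in KO. Without Sirpa and Bst2, left out in the same way, the other 14 dendritic cell markers summed to 229.5 to 254.9 in WT and 223.9 to 270.6 in KO. The genes left out were those that fell most in linear intensity, so the overlap of the groups in both sums was favoured in advance. All 14 macrophage markers that remained had means at or below the median of all probe sets. The part of these markers in the H2-Ab1 difference was not tested.

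Among basophil and eosinophil markers, 0 of 9 passed by limma. At an unadjusted p under 0.05, which 12.7% of all genes reached, 1 was lower (Prg2, at -0.22). Mcpt8, a basophil protease, read 6.68 ± 1.27 in WT and 6.47 ± 1.01 in KO (SD, n = 3). Of 13 mast cell markers 0 passed by limma, with 2 higher and 1 lower at an unadjusted p under 0.05 (Mcpt4 at 0.44, Hdc at 0.84 and Mitf at -0.29). Their sums ran from 32240 to 36630 in WT and from 32640 to 38170 in KO.

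Genes whose readings followed the class II structural genes most closely over the 6 arrays were sought against the mean of H2-Aa, H2-Ab1, H2-Eb1 and Cd74, each centred on its own mean. This profile was mostly that of H2-Ab1 (Pearson r = 0.960), with r of 0.567 for H2-Aa, 0.530 for H2-Eb1 and -0.809 for Cd74, so the 4 genes did not vary as 1 group. The 8 closest of 3382 candidate genes were Ppm1h, Stim1, Zfp395, Pgp, Map4k4, Ormdl3, Kcnab3 and Gpr137b, with r from 0.958 to 0.984. These arrays share the genotype split, and 11 candidates had r above 0.95. The profile was lower on every KO array than on every WT array, so lower readings in KO were favoured by the choice itself. Of the 8, Zfp395 and Gpr137b fell, by 0.80 and by 1.05 (limma, adjusted p = 0.0448 and 0.0148), and Stim1, a calcium sensor of the endoplasmic reticulum, differed by -0.46 (limma, adjusted p = 0.0747).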

How the data were processed

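Arrays were Affymetrix Mouse Gene 1.0 ST, 1 per culture. The authors deposited log2 intensities, and the submitters' processing notes name RMA, without a version in the sources used here. This method corrects background, normalizes between arrays and summarises probes, so differences are log2 ratios, and the values were used as deposited. Of 35557 probe sets, the platform annotation gave 21789 a single symbol, 1621 several and 12147 none. The probe set with the highest mean over 6 arrays stood for each gene, leaving 19938. The test across all of them was limma 3.58.1 under R 4.3.3 (lmFit and eBayes, genotype as the only term, 4 residual and 4.68 prior degrees of freedom), two-sided, with Benjamini-Hochberg adjustment; "rose" and "fell" mean an adjusted p under 0.05. For arrays, their number limits the precision. The genes and lists were chosen with earlier results of these data known. Genes named are the 8 class II genes, per list up to 3 with the lowest p and all that passed, 20 fixed by name (among them Rfx5, Rfxank, Rfxap, Ctss, Irf1, Irf8, Spi1, Nlrc5, B2m, H2-Ob, H2-DMb2, Flt3, Itgax, Zbtb46, Csf1r, Adgre1, Fcer1a and Kit, of which H2-DMb2 had no probe set of its own; the others are not reported here), and 8 alike in pattern among genes with an SD of at least 0.2 and a mean above 3.69; others were chosen after their values were seen. Alternatives were a replicate block, 2 further normalizations, a filter on dim genes, other priors, array weights, other choices of probe set and leaving out each array. The fit was tested on simulated data. Plots used matplotlib 3.10.9.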

Additional observations from a re-analysis of the deposited data

How the results depend on the processing

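Each of the 7 class II genes was refitted in every alternative that held it, which gave 94 pairs of gene and setting. Of these pairs 89 kept the direction and the side of the threshold, 3 crossed the threshold and 2 changed sign. The count that passed was 1 (H2-Ab1) with array weights (adjusted p = 0.0303), with a filter on genes whose mean is above the median of all probe sets (adjusted p = 0.0460) and without KO replicate 1, and 0 in the other settings, by limma, hence 0 to 1 over the fits without 1 array. The filter left 3 of the 7 and reduced the number of genes tested. The median difference of the class II genes stayed between 0.04 and 0.11.

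Without 1 array, differences that were near 0 changed sign for H2-Aa (-0.110 to 0.057), H2-Eb1 (-0.079 to 0.015), H2-Ea (-0.120 to 0.072), Ctss (-0.060 to 0.091), Fcer1a (-0.016 to 0.110), Flt3 (-0.015 to 0.137), Irf8 (-0.074 to 0.077), Kit (-0.149 to 0.034), Nlrc5 (-0.422 to 0.024), Rfx5 (-0.059 to 0.131), Rfxank (-0.040 to 0.252) and Rfxap (-0.062 to 0.0094), and the cause was not tested. Irf8 was at -0.0017 after median centring, and Irf8 and Rfx5 at -0.0311 and -0.0053 with array weights.

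Against 0.823% of all genes tested, 3 of the 151 other genes of the lists passed. This count was 6 with the filter on dim genes, 5 with trend and robust priors and 0 with every probe set tested, where Cd82, Tnfsf14 and Cx3cr1 had adjusted p of 0.0853, 0.114 and 0.151 among 35557 tests, and it ran from 0 to 8 over the fits without 1 array. With the replicate number as a block it was 6, among them Pdcd1lg2 (adjusted p = 0.0320) and Tnfsf4 (adjusted p = 0.0370), and H2-Ab1 was at an adjusted p of 0.0732. The deviations of same-numbered arrays from their group means correlated at -0.0142, -0.0605 and 0.237, and 2 of 6 arrays correlated best with their own number. The labels do not say whether the numbers pair the cultures. With 3 arrays per group these correlations cannot decide it. Over all genes 199 passed with the block and 164 without it.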
